A study of Mus musculus with 29 samples.

Results

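The hypothalamus of 12-month-old mice was compared with that of 2-month-old mice. The comparison took in the 3 libraries labelled 12 months and the 3 labelled 2 months, 6 of the 29 libraries of a series on mouse ageing. The genes that differed were then looked up in the 3 libraries labelled 6 months, and 6-month values are printed for a part of the named genes. The sample titles carry the letters thal at 2 months and tha at 12 months, and no letters for a tissue at 6 months. What these letters stand for is not stated in the titles. All animals were wild-type C57BL/6 males, housed singly on a light-dark cycle with free access to food and water, and no treatment is named for any age. The hypothalamus was taken after cervical dislocation at about Zeitgeber time 6, in the light phase, kept in RNAlater and frozen, and its total RNA was sequenced as paired-end libraries. The 4 libraries labelled 5 weeks and the 3 labelled 18 months, from mice of the same strain, genotype and sex, are used below as further reference points.

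The hypothalamus is a small mixture of peptide-secreting neurons, glia, vessels and the lining of the third ventricle. Its magnocellular neurons make vasopressin and oxytocin, its arcuate neurons weigh hunger against satiety, and other nuclei govern reproduction, body temperature, stress hormones and daily rhythm. With age, brain tissue in mice is known for rising complement, microglial and major histocompatibility complex (MHC) transcripts and for falling transcripts of active myelination. In bulk tissue such as this, fewer cells of a type and less RNA per cell cannot be told apart.

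Reads per gene were taken from the deposited counts and expressed as CPM, a gene's counts scaled to a common library size with TMM factors. Gene totals ran from 24661631 to 39783779 counts in the 9 libraries of 2, 6 and 12 months. A gene is called where the adjusted p of edgeR's quasi-likelihood test was below 0.05 over the 16916 genes tested, in a fit to 28 libraries of all ages. The 24-month library left out of that fit had counts for 1385 genes only.

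Of the 16916 genes, 2675 were called between 12 and 2 months, which is 15.8% of those tested. There were 1262 genes higher at 12 months (7.46%) and 1413 lower (8.35%), and at least 2-fold changes were reached by 386 and 118 of them. The libraries of the 2 ages did not overlap in CPM for 27.1% of all tested genes and for 2403 of the called genes. The median log2 fold change over all tested genes was 0.00673. With plain library size in place of TMM that median was 0.0959, and 2034 genes were called higher and 834 lower. A fit to the 2- and 12-month libraries alone called 360 genes. Without 2-month replicate 11 the count was 1045, and without 12-month replicate 26 it was 1253. Nothing but the numbers in the sample names says that the libraries of an age came from separate mice.

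The 2-month libraries stood apart in their hypothalamic transcription factors, and this precedes every result here. The mean log2 CPM of 28 hypothalamic transcription factors ran from 1.37 to 1.69 in the 3 libraries of 2 months, against 2.30 to 2.81 at 6 months, 2.62 to 2.85 at 12 months and 2.56 to 3.13 at 5 weeks. Midbrain and hindbrain markers, 17 of which were tested, went the other way, with mean log2 CPM between 0.64 and 1.96 at 2 months but between -0.69 and 0.84 at 12 months. These ages overlapped, since 2-month replicate 11 (0.64) lay below 12-month replicate 28 (0.84). In summed CPM that 12-month library (269) exceeded every 2-month library (170 to 234). Among later libraries the 6-month replicate 34 lay nearest to the 2-month ones, at 2.30 for the first list, and exceeded them at 2.35 for the second. Thalamus markers, 13 tested, were present in every library too, with a mean log2 CPM of 6.60 to 6.84 at 2 months, 5.595 to 6.57 at 6 months, 5.36 to 6.63 at 12 months and 6.36 to 6.95 at 5 weeks. Of these 1 was called lower and 0 higher between 12 and 2 months, with a median of -0.537. Cortex and hippocampus markers, 10 tested, stood at 4.37 in 2-month replicates 11 and 12 and at 2.89 in replicate 13. They ran from 2.75 to 3.46 at 6 months, 3.07 to 3.28 at 12 months and 2.93 to 4.52 at 5 weeks. Striatum markers, 14 tested, stood at 5.13 in 6-month replicate 32, against 3.505 to 3.80 at 2 months and 3.56 to 3.83 at 12 months. Both lists had 1 member called higher and 0 lower (medians -0.748 and 0.0833). The hypothalamic markers were found in every one of these libraries, with the 3 of 2 months below all of those of 5 weeks and of 6 to 24 months. Adding each library's mean over these factors to the model left 13 called genes. Whether the regional markers set other results was not tested, and at 2 months they cannot be told apart from age. For this reason the counts of 12 months against 5 weeks are given beside most gene groups. That comparison shares the 12-month libraries with the main one and called 3360 genes (19.9%), 1447 higher (8.55%) and 1913 lower (11.3%). The 5-week libraries had a larger share of low-quality alignments, 9.31 to 11.2% of reads, than the libraries of 2, 6 and 12 months, at 5.00 to 5.97%.

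**Figure D1:**
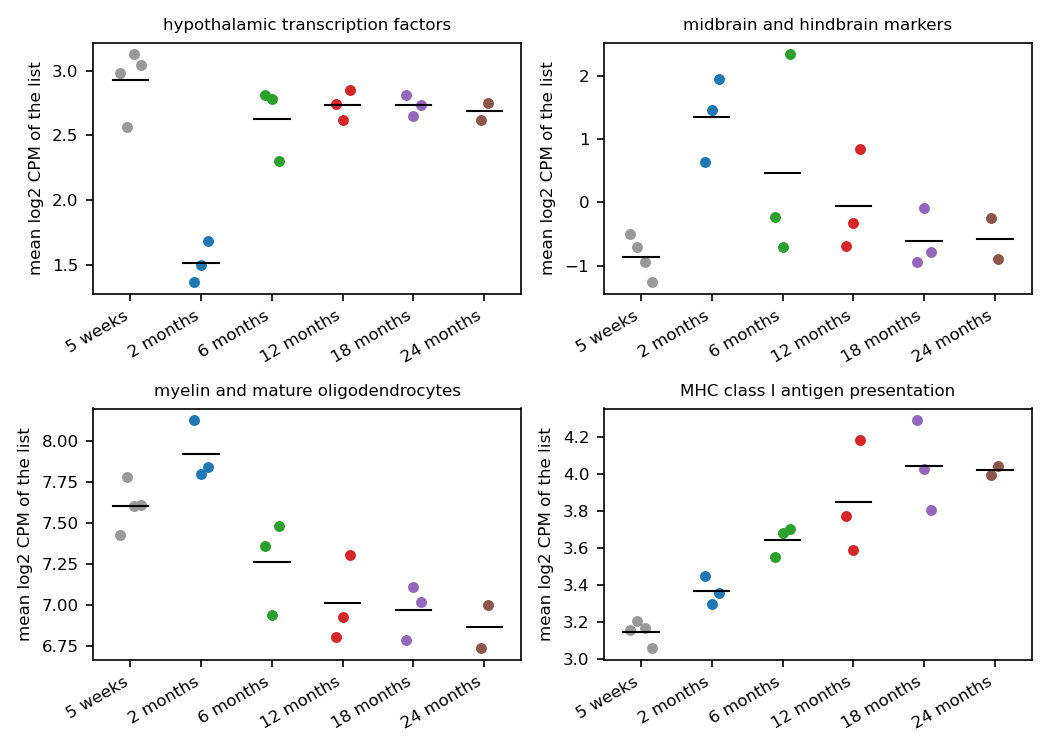
Mean log2 CPM of 4 gene lists in each library (points) by age, with the mean of each age as a bar. Hypothalamic transcription factors are lowest in all 3 libraries of 2 months (1.37 to 1.69), whereas myelin genes are lower from 6 months on than at 2 months, and MHC class I genes are higher at 12 months (3.59 to 4.18) than at 2 months (3.30 to 3.45).

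The called genes were looked up at 6 months. Between 6 and 2 months 608 genes were called (3.59%), 299 higher (1.77%) and 309 lower (1.83%). That count ran from 42 without 6-month replicate 33 to 1350 without 2-month replicate 13, with 84 without 2-month replicate 11, 189 without 6-month replicate 32 and 919 without 6-month replicate 34. Between 12 and 6 months edgeR called 0 genes (0%), with a smallest adjusted p of 0.282, 1548 genes at an unadjusted p below 0.05 and 24 genes called by DESeq2. The 6-month mean fell between the 2- and 12-month means for 2436 of the 2675 called genes (91.1%), which were chosen for a difference between those ages, and for 8650 of all 16916 tested genes (51.1%). In 1496 of the 2675 called genes (55.9%) all 6-month libraries lay apart from the 2-month libraries on the 12-month side. In 750 of the called genes (28%) the 6-month libraries lay apart from the 12-month libraries on the 2-month side. These 2 counts use the same libraries by which the genes were called. They were not taken over all tested genes, so they are a description only.

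Among called genes that reached 5 CPM and whose libraries lay apart, the steepest rises were in the genes of the magnocellular neurons, which sit side by side on chromosome 2. Oxt, which encodes the oxytocin precursor, spans chr2:130576173-130577054 on the plus strand, and Avp, which encodes the vasopressin precursor, spans chr2:130580620-130582554 on the minus strand (GRCm38, GENCODE M21). The genes point at each other with 3565 bases between them. Their promoters are shown because these neighbours moved together, and the 250 bases before the start of Serpina3n are shown with them because that gene rose both here and between 6 and 18 months. The sequences are from RefSeq, GRCm38.p6, read 5′ to 3′ on the gene's strand, Avp from chr2:130582589-130582838, minus strand, Oxt from chr2:130575919-130576168, plus strand, and Serpina3n from chr12:104406458-104406707, plus strand. Capitals mark matches, on either strand, to CACGTG (the E-box bound by clock factors), TGACCT (a nuclear receptor half-site) or TTCNNNGAA (a STAT motif).
Avp: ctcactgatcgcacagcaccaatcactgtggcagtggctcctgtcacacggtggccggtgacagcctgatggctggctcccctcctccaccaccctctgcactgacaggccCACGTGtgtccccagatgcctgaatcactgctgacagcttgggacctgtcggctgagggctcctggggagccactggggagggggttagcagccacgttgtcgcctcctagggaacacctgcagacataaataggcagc
Oxt: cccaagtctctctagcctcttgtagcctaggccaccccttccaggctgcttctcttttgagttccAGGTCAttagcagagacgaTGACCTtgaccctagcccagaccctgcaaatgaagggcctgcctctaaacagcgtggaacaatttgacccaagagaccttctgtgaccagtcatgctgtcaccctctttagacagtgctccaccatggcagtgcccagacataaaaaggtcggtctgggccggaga
Serpina3n: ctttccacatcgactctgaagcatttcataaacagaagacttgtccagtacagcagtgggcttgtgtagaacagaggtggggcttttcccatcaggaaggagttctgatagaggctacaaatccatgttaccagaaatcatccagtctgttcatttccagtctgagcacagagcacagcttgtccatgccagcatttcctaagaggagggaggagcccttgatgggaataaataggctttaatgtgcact
Avp held 1 CACGTG, starting 139 bases before its RefSeq start. Oxt held 2 copies of the half-site, starting at 185 and 166 bases before its RefSeq start and facing opposite ways. The RefSeq starts differ from the GENCODE coordinates given for these genes. No match to these 3 motifs was found in the Serpina3n window. Of 32851 promoters of the same length, 6.02% held CACGTG, 14% held TGACCT and 7.02% held TTCNNNGAA. A match is a description of the letters only.

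Avp stood at 16.5, 11.1 and 56.9 CPM in the 2-month libraries, at 263, 166 and 137 CPM at 6 months and at 399, 313 and 1044 CPM at 12 months. The 3 ages did not overlap, and the highest 12-month library was replicate 28. The log2 fold change of 12 against 2 months was 4.39 (SE 0.61, adjusted p = 0.0002), or 20.9-fold. Oxt rose from 3.41, 7.54 and 22.3 CPM to 189, 178 and 284 CPM, with 70.1, 132 and 83.7 CPM at 6 months (log2 fold change 4.31, SE 0.52, adjusted p = 5.42e-05). Against 5 weeks neither gene passed the test at 12 months: Avp was at 230 to 372 CPM and Oxt at 102 to 220 CPM in the 5-week libraries, with log2 fold changes of 0.97 (adjusted p = 0.166) and 0.42 (adjusted p = 0.498).

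Other neuropeptide genes rose too. Of 29 tested neuropeptide genes, 13 were called higher at 12 than at 2 months and 1 lower (Grp, log2 fold change -0.66), with a median of 0.915. Pomc, the precursor of the satiety peptide alpha-MSH, was at 9.43, 5.77 and 16.6 CPM at 2 months and at 34.5, 30 and 66.8 CPM at 12 months (log2 fold change 2.06, adjusted p = 0.00312), with no overlap. The pituitary makes Pomc too, and the mean log2 CPM of 8 pituitary markers was -0.46 to 0.28 at 12 months and -3.40 to -0.92 at 2 months, also without overlap. Their part in the rise of Pomc was not tested. Galanin (Gal) rose from 5.44 to 7.77 CPM to between 22.3 and 23.3 CPM, and prodynorphin (Pdyn) from 14.4 to 19.6 CPM to between 45.8 and 64.7 CPM. Pmch, which encodes melanin-concentrating hormone, rose by 1.85 on the log2 scale, and Trh, which encodes thyrotropin-releasing hormone, by 1.86. Gnrh1, the releasing hormone of the reproductive axis, was at 0.385 to 0.657 CPM at 2 months and 1.47 to 3.49 CPM at 12 months (log2 fold change 2.36, adjusted p = 0.0248). In raw counts summed over the libraries of 2, 6 and 12 months, Pomc had 885, 2643 and 3495 and Gal 575, 1646 and 1831. Pdyn had 1508, 4513 and 4290, Pmch 1385, 2878 and 4629, Trh 1579, 4506 and 5266, and Gnrh1 42, 217 and 203. These sums are not scaled for library size.

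Several peptides did not pass the test. Hcrt, the orexin precursor, was at 14.8, 61.8 and 66.1 CPM at 2 months and at 62.5, 74.8 and 58.1 CPM at 12 months, with the 2-month replicate 11 alone being low (log2 fold change 0.45, adjusted p = 0.586). The hunger peptides Agrp and Npy had log2 fold changes of 0.71 (adjusted p = 0.156) and -0.32 (adjusted p = 0.492). Crh was at 0.68 (adjusted p = 0.185) and Kiss1, a trigger of gonadotropin release, at 0.72 (adjusted p = 0.390). The abundant Cck and Cartpt were not called lower, though their raw counts went down. Summed over libraries, unscaled, these were 16047 and 7283 at 2 months and 6643 and 4605 at 12 months. Between 12 months and 5 weeks 0 of the 29 neuropeptide genes were called in either direction by edgeR and 0 by DESeq2, 2 had an unadjusted p below 0.05, and the median was 0.0674.

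Transcription factors that mark hypothalamic nuclei rose with the peptides in the comparison with 2 months. Of 28 tested, 12 were called higher and 1 lower (Sox14, log2 fold change -1.24), with a median of 1.13. Fezf1, a zinc finger factor of the ventromedial nucleus, was at 0.471, 0.621 and 3.60 CPM at 2 months and at 7.03, 11.1 and 14.8 CPM at 12 months. Vax1, a ventral forebrain homeobox gene, rose from 0.725 to 2.32 CPM to between 5.06 and 9.47 CPM. Otp, needed for neurosecretory neurons, rose from 2.54 to 5.49 CPM to between 14.8 and 22.6 CPM. Six6 and Sim1, homeobox and basic helix-loop-helix factors of the hypothalamus, rose by 2.88 and 1.73 on the log2 scale. In each of these 5 genes the 6-month libraries lay wholly above the 2-month ones. Against 5 weeks the list had 0 genes called higher and 1 lower (Bsx), with 4 at an unadjusted p below 0.05 and a median of -0.25, and Fezf1, Vax1 and Otp had log2 fold changes of -0.43, -0.38 and -0.72, none past the test.

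Genes with the steepest falls within the same filters included markers of other brain regions. Of 17 tested midbrain and hindbrain markers 5 were called lower and 1 higher (Phox2a, log2 fold change 2.71), and the median was -1.63. Without 2-month replicate 11 or 12-month replicate 27 there were 3 lower, and without 12-month replicate 26 there were 2. Ucn, the urocortin of the Edinger-Westphal nucleus, was at 14.2, 8.84 and 7.42 CPM at 2 months and at 0.916, 0.968 and 1.06 CPM at 12 months (log2 fold change -3.37, SE 1.09, adjusted p = 0.0408). At 6 months it was at 0.05 and 0.132 CPM in replicates 32 and 33 and at 6.02 CPM in replicate 34. Rln3, the relaxin of the nucleus incertus, fell by 2.55 on the log2 scale, and the transcription factors Tfap2b, Gata3 and Tal1 by 3.35, 2.37 and 2.18. Replicate 34 was also the highest 6-month library for each of these 4. Against 5 weeks none of the 5 was lower at 12 months: their log2 fold changes were 0.84, 0.35, 1.54, 1.65 and 0.22, in the order named, with none past the test.

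**Figure D2:**
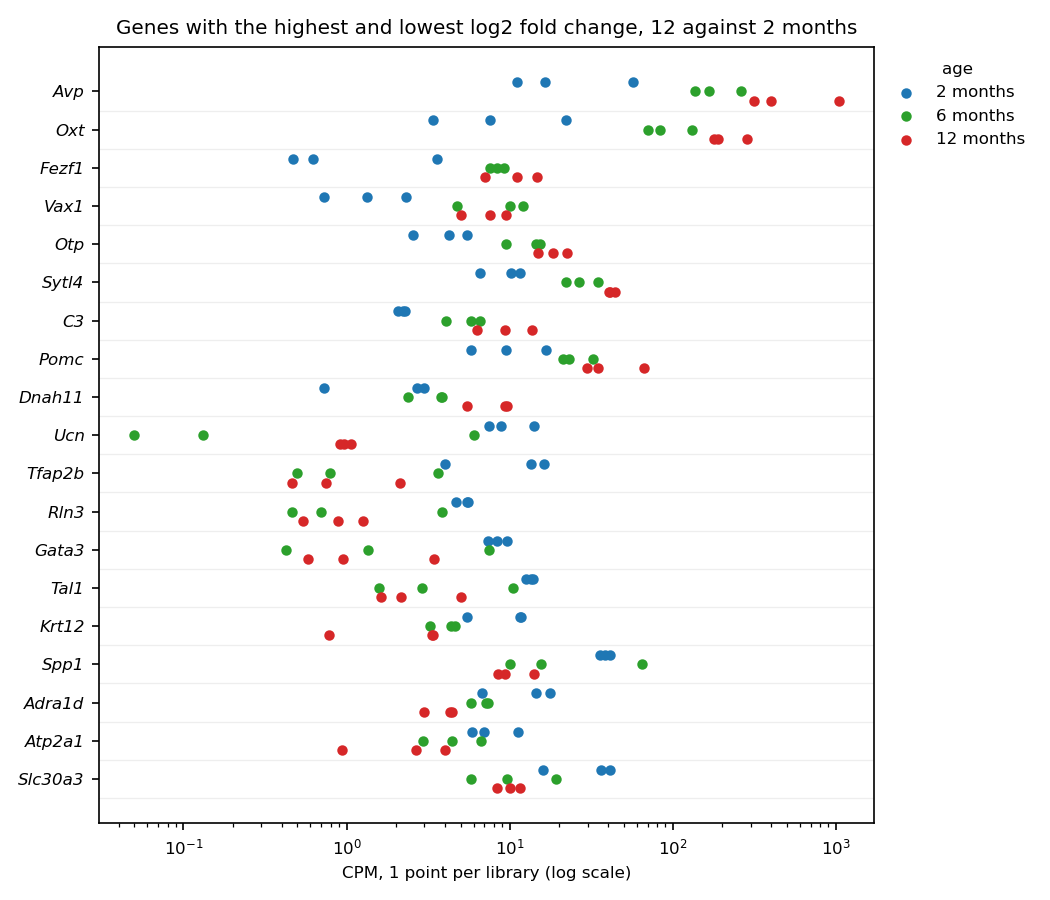
CPM on a log axis of 9 of the 10 genes with the highest and the 10 with the lowest log2 fold change among called genes with at least 5 CPM and no overlap of ages, 1 point per library at 2, 6 and 12 months. The 2- and 12-month points are apart by that choice of the 19 genes shown, and the 6-month points overlap the 12-month ones in 5 of the 9 higher and 9 of the 10 lower genes.

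The remaining genes with steep changes came from varied functions, and the part of the regional markers in these changes was not tested. Sytl4, a docking protein of secretory granules, was at 11.5, 6.54 and 10.2 CPM at 2 months, 26.6, 35 and 22.2 CPM at 6 months and 41.3, 44.5 and 40.6 CPM at 12 months. All 3 ages were apart, and Sytl4 was also called against 5 weeks (log2 fold change 2.17 here and 0.89 there). Dnah11, a dynein of motile cilia, rose by 1.92. Among genes that fell were Krt12 (a keratin, log2 fold change -1.93), Spp1 (osteopontin, -1.86), Adra1d (an adrenergic receptor, -1.73), Atp2a1 (a calcium pump, -1.65) and Slc30a3 (the zinc transporter of synaptic vesicles, -1.63). For Spp1, 6-month replicate 34 at 65 CPM exceeded every 2-month library, at 35.9 to 41.1 CPM. Of the 10 steepest rises within those filters, 7 were also called higher between 6 and 2 months, and of the 10 steepest falls 2 were called lower. Over all tested genes the shares were 1.77% and 1.83%. Both comparisons use the 2-month libraries by which these genes were chosen, so the counts are a description only. Without the filters, 9630013A20Rik and Fam83d had log2 fold changes of -2.57 and -2.01 and Fshb one of 5.23. These 3 were named after their values were seen.

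Myelin genes fell against 2 months and against 5 weeks. Of 22 tested genes of myelin and mature oligodendrocytes, 19 were called lower at 12 than at 2 months and 0 higher, with a median log2 fold change of -0.904. Between 6 and 2 months 12 were called lower and 0 higher (median -0.632). Between 12 months and 5 weeks 14 were called lower and 2 higher, Hapln2 and Anln (median -0.855). With the hypothalamic transcription factor level as a term the median was -0.547 and 0 members were called.

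Mog, a surface glycoprotein of the myelin sheath, spans chr17:37010743-37023398 on the minus strand (GRCm38, GENCODE M21). It was at 246, 186 and 196 CPM at 2 months, 120, 92.5 and 122 CPM at 6 months and 77.1, 84.2 and 104 CPM at 12 months. Both later ages lay wholly below 2 months, and the 12-month fall was 2.37-fold (log2 fold change -1.25, SE 0.13, adjusted p = 1.61e-05). Cldn11, the tight junction claudin of myelin, fell from 527, 403 and 425 CPM to 159, 173 and 221 CPM. Mal, a proteolipid of myelin rafts, fell by 1.09 on the log2 scale, and Fa2h, the hydroxylase that makes myelin galactolipid chains, fell by the same amount. Mbp, myelin basic protein, was at 11760, 7522 and 7542 CPM at 2 months and at 4006, 4107 and 5592 CPM at 12 months (log2 fold change -0.97, adjusted p = 0.00215). Hapln2, Apod and Anln were the 3 members that were not called, with log2 fold changes of -0.27, -0.60 and -0.47.

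Genes of the steps before mature myelin fell as well. Of 15 tested genes of oligodendrocyte precursors and newly formed oligodendrocytes, 5 were called lower and 0 higher against 2 months, and likewise 5 and 0 against 5 weeks. Gpr17, which marks cells committed to become oligodendrocytes, was at 38.8, 57.8 and 59.2 CPM at 2 months, 41, 38.5 and 34.6 CPM at 6 months and 33.4, 32.7 and 35.5 CPM at 12 months, against 94.5 to 117 CPM at 5 weeks. Its log2 fold change was -0.62 against 2 months and -1.66 against 5 weeks. Enpp6, an early marker of newly forming oligodendrocytes, fell by 0.96 against 2 months. In cholesterol synthesis, 7 of 24 tested enzymes were called lower against 2 months and 13 against 5 weeks, with Dhcr7 at -0.39 and Msmo1 at -0.42 against 2 months.

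**Figure D3:**
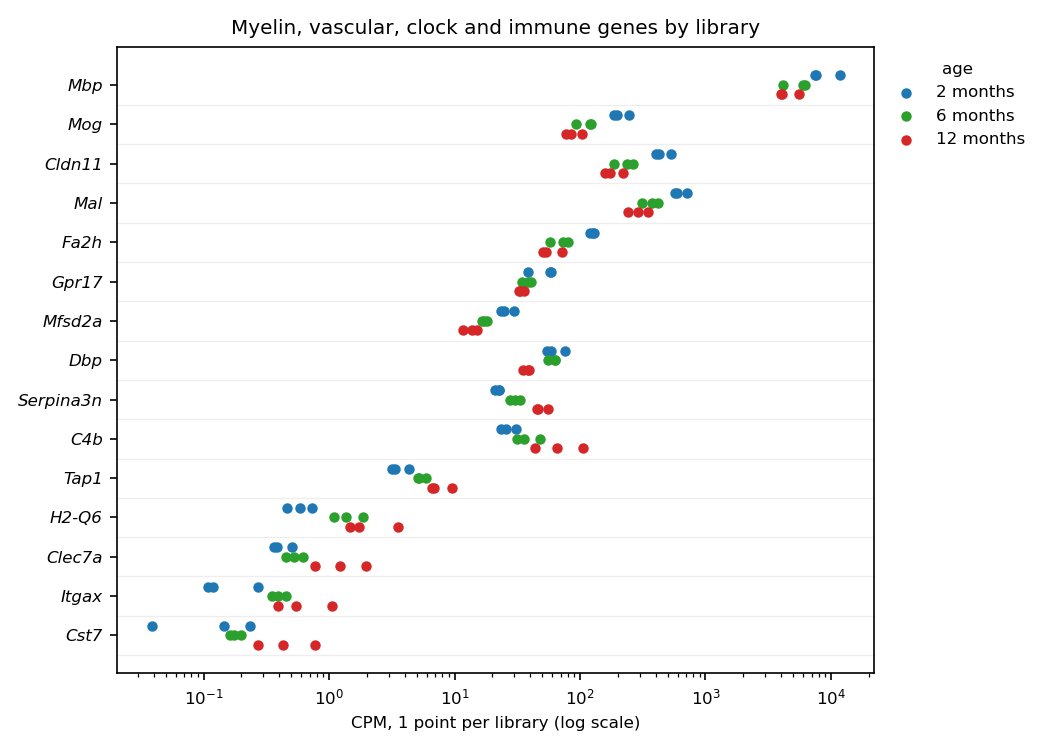
CPM on a log axis of 15 genes of myelin, vessels, the clock and immunity, 1 point per library at 2, 6 and 12 months. Mog falls from 186 or more CPM at 2 months to 104 or fewer at 12 months with 6 months between, and Dbp is lower at 12 months only. Of the 3 ages shown, Serpina3n is lowest at 2 months and highest at 12 months.

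Some immune and reactive genes rose, while most members of these lists were not called against 2 months. Serpina3n, an acute-phase serpin of reactive astrocytes, lies at chr12:104406729-104414329 on the plus strand (GRCm38, GENCODE M21). It was at 22.5, 21.1 and 22.6 CPM at 2 months, 33, 30.1 and 27.7 CPM at 6 months and 46.2, 45.8 and 55.5 CPM at 12 months. The 3 ages did not overlap (log2 fold change of 12 against 2 months 1.16, SE 0.14, adjusted p = 2.83e-05), and Serpina3n was called against 5 weeks too (0.72, adjusted p = 0.000294). At 5 weeks it was at 27.7 to 35.2 CPM, above the 2-month libraries. It was not called between 6 and 2 months (adjusted p = 0.0569). Of 20 tested reactive astrocyte genes 4 were called higher (Serpina3n, C3, Ggta1 and Amigo2) and 1 lower (Srgn), and 6 and 0 against 5 weeks. Gfap, the astrocyte filament protein, was not among them: it was at 520, 401 and 350 CPM at 2 months and at 324, 225 and 856 CPM at 12 months (log2 fold change 0.14, adjusted p = 0.809).

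Complement genes were called higher in 4 of 20 cases against 2 months, with 0 lower, and in 9 against 5 weeks, with 1 lower. C3, the central complement component, was at 2.07, 2.22 and 2.28 CPM at 2 months, 5.8, 6.62 and 4.06 CPM at 6 months and 9.4, 6.27 and 13.7 CPM at 12 months (log2 fold change 2.16, adjusted p = 0.000364). C4b, a component of the classical pathway with a close paralog that can share reads, rose from 23.4, 31 and 25.8 CPM to 65.4, 43.8 and 105 CPM (log2 fold change 1.42, adjusted p = 0.00485). For both genes the 2- and 12-month libraries were apart, and replicate 28 was the highest at 12 months. Itgam and Itgb2, the chains of complement receptor 3 on microglia, rose by 0.50 and 0.59.

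Of 18 tested genes of MHC class I antigen presentation, 7 were called higher against 2 months and 14 against 5 weeks, with 0 lower in either. The medians were 0.287 and 0.556. Tap1, the peptide transporter, was at 3.15, 4.38 and 3.36 CPM at 2 months, 5.1, 5.2 and 5.89 CPM at 6 months and 6.89, 6.58 and 9.53 CPM at 12 months, with the 3 ages apart (log2 fold change 1.07, adjusted p = 0.0012). H2-Q6 and H2-Q4, class I heavy chains with near-identical relatives whose reads may be split, rose by 1.91 and 0.63, and the immunoproteasome subunit Psmb8 by 0.55. The more abundant chains H2-D1 and H2-K1 and their partner B2m had log2 fold changes of 0.25, 0.28 and 0.10, none past the test against 2 months, and 0.47, 0.54 and 0.42 against 5 weeks, where each was called. Without 12-month replicate 28, 2 of the 18 genes were called against 2 months, without replicate 26 there were 4, and without 2-month replicate 11 or 12 there were 3.

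Interferon-stimulated genes were called higher in 2 of 27 cases against 2 months (Lgals3bp and Ddx58), near the 7.46% of all genes, and in 11 against 5 weeks, with 0 lower in either. Lgals3bp, a secreted glycoprotein induced by interferon, rose from 18.4 to 19.6 CPM to between 28.2 and 50.7 CPM. Homeostatic microglial genes, which stand for the number and resting state of microglia, were called higher in 2 of 18 cases, Cx3cr1 (log2 fold change 0.37) and Trem2 (0.39). That count is also not far from the 7.46% of all genes, and a fit to the 2-, 6- and 12-month libraries called 0 of the 18. Against 5 weeks 7 were higher and 1 lower. Genes of disease-associated microglia went both ways against 2 months, with 4 of 24 higher and 4 lower (Spp1, Lpl, Axl and Fth1), and against 5 weeks 6 were higher and 0 lower. Against 2 months the higher ones were Lgals3, a galectin, Itgax, an integrin chain of activated microglia, Clec7a, a glucan receptor, and Cst7, a cystatin. Their log2 fold changes were 0.89 for Lgals3 and 2.02, 1.64 and 1.71 for the others. The last 3 were rare transcripts: Cst7 was at 0.145, 0.237 and 0.0387 CPM at 2 months and at 0.272, 0.774 and 0.432 CPM at 12 months. Itgax was at 0.109, 0.118 and 0.271 CPM at 2 months and at 1.05, 0.542 and 0.392 CPM at 12 months. Its 5-week mean was 0.423 CPM, and Itgax was not called against that age (log2 fold change 0.66, adjusted p = 0.1745). Il33, the alarmin of oligodendrocytes and astrocytes, was at 79.3 to 105 CPM at 2 months and at 75.7 to 103 CPM at 12 months (log2 fold change 0.01), and at 34.1 to 42.6 CPM at 5 weeks.

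A comparison that shares no library with this one, 18 against 6 months, called 3 genes (0.0177%), all higher at 18 months: Serpina3n, Itgax and Cst7. Their log2 fold changes there were 0.94, 2.25 and 2.60. The count was 1 without 6-month replicate 32 or 18-month replicate 16 and 6 without 18-month replicate 15. DESeq2 called 18 genes in it, and 1315 had an unadjusted p below 0.05. Of the 2675 genes called between 12 and 2 months, 2363 had the same sign between 18 and 6 months (88.3%), against 68.7% of all tested genes. The Pearson correlation of the log2 fold changes across the called genes was 0.715, as a description, since genes are not independent replicates and 6-month replicate 34 was low in hypothalamic and high in midbrain markers. Its part in that likeness was not tested.

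**Figure D4:**
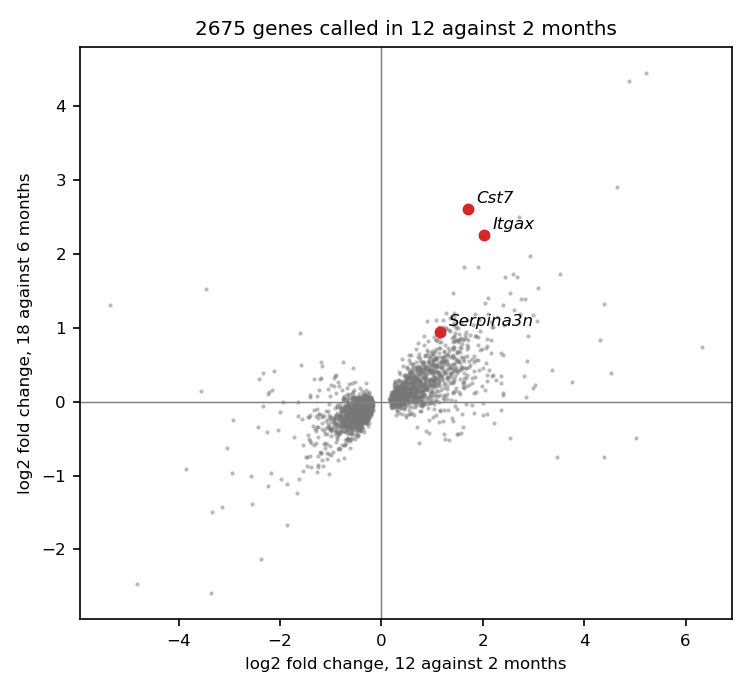
Log2 fold change of 18 against 6 months plotted over that of 12 against 2 months for the 2675 genes called in the latter, 1 point per gene. The comparisons share no library, 2363 points have the same sign on both axes, and the 3 genes called in both are named.

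Vascular genes were lower. Of 19 tested genes of endothelium and the blood-brain barrier, 9 were called lower and 0 higher against 2 months, 4 between 6 and 2 months and 6 against 5 weeks. Without 12-month replicate 26 the first count was 5, with plain library size it was 5, and with the 2- and 12-month libraries only it was 4. Mfsd2a, the barrier's transporter of docosahexaenoic acid, was at 29.9, 24.7 and 23.4 CPM at 2 months, 17.1, 16.4 and 18.1 CPM at 6 months and 11.8, 13.9 and 15.1 CPM at 12 months. The 3 ages were apart (log2 fold change -0.93, adjusted p = 0.000233). With the hypothalamic level as a term Mfsd2a was the only 1 of the 19 genes that was called. Since that level did not overlap between 2 and 12 months, the call does not separate age from regional markers. Itm2a, Ly6c1 and the organic anion transporter Slco1a4 fell by 0.71, 0.79 and 0.58 on the log2 scale. Of 14 genes of pericytes, smooth muscle and fibroblasts 5 were called lower and 0 higher, with the smooth muscle genes Tagln and Acta2 at -1.40 and -1.16, and 2 were lower and 0 higher against 5 weeks.

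Among stress and activity genes several were lower at 12 months. Of 19 tested clock genes 2 were called lower, Dbp and Nr1d1, and 0 higher, a share near the 8.35% of all genes called lower. Against 5 weeks 3 were lower and 0 higher. Dbp, a clock-controlled transcription factor, was at 76.5, 54.4 and 58.7 CPM at 2 months, 63.6, 55.9 and 63.1 CPM at 6 months and 39.1, 35.3 and 38.7 CPM at 12 months. The 12-month libraries lay below both earlier ages (log2 fold change of 12 against 2 months -0.74, adjusted p = 0.0051), while 2 and 6 months overlapped, and the 18-month libraries were at 52.7 to 61.6 CPM. Nr1d1, the repressor REV-ERB alpha, fell by 0.36, and Per1 had a log2 fold change of -0.10 (adjusted p = 0.733).

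Glucocorticoid-responsive genes were called lower in 8 of 18 cases and higher in 0, with a median of -0.503. There were 5 lower without 2-month replicate 11 or without 12-month replicate 26. Klf9, which is induced by glucocorticoid and thyroid hormones, was at 112 to 133 CPM at 2 months, 115 to 128 CPM at 6 months and 74.2 to 95.2 CPM at 12 months. Nfkbia, an inhibitor of NF-kappaB, and Ddit4, a stress-induced inhibitor of mTORC1, fell by 0.65 and 0.67. Against 5 weeks this list had 4 genes lower and 2 higher. Of 21 immediate early genes 6 were called lower and 0 higher against 2 months, and 5 and 0 against 5 weeks. Dusp1, Jun and Arc fell by 0.86, 0.45 and 0.69.

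Hormone receptors and regulators changed in both directions. Of 22 genes of energy balance and insulin signalling 6 were called higher and 0 lower, among them Irs4, a docking protein of insulin and leptin signalling, which was at 19.6 to 27.9 CPM at 2 months and 67.7 to 87 CPM at 12 months, but at 52.2 to 88.8 CPM at 5 weeks. Against 5 weeks that list had 1 gene higher and 2 lower. In the reproductive axis 5 of 14 were called higher and 2 lower, and 2 and 2 against 5 weeks. The prolactin receptor Prlr rose by 1.56. Mkrn3, a brake on puberty, fell from 2.03 to 2.57 CPM to between 0.679 and 1.33 CPM (log2 fold change -1.25), with 2.02 to 3.08 CPM at 5 weeks. In thyroid hormone signalling 5 of 12 were called lower and 1 higher, and 2 and 1 against 5 weeks. Dio2, the deiodinase that makes active thyroid hormone in tanycytes and astrocytes, was at 49, 37.8 and 36 CPM at 2 months, 27, 20.8 and 24.8 CPM at 6 months and 13.1, 15.9 and 16.5 CPM at 12 months (log2 fold change -1.43), with 14.9 to 24.9 CPM at 5 weeks. Hr, a thyroid hormone target, fell by 0.64.

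Most genes of neuronal filaments were lower. Of 12 genes of neurofilaments and calcium-binding proteins, 8 were called lower and 1 higher (Calb1), with a median of -0.606. There were 4 lower without 2-month replicate 11 or without 12-month replicate 26. Nefm, the medium neurofilament, was at 338, 242 and 314 CPM at 2 months, 205, 194 and 326 CPM at 6 months and 133, 160 and 158 CPM at 12 months. Its high 6-month library was replicate 34, and at 5 weeks it was at 139 to 190 CPM. Nefl, the light chain, fell by 0.74 and had the same high 6-month library. Among 70 potassium channel genes 16 were called lower and 3 higher, and 14 and 1 against 5 weeks. Of 12 perineuronal net genes 5 were called lower and 0 higher, with Hapln1, a link protein, at -1.26, and 3 and 0 against 5 weeks. Against 5 weeks the neurofilament list had 2 genes called lower and 0 higher (median -0.111).

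Imprinted genes were called higher in 10 of 17 cases against 2 months and 0 lower, with a median of 0.501, and in 1 case against 5 weeks with 3 lower. The first count was 6 without 2-month replicate 11. Grb10 and Peg10, imprinted genes of growth control, rose by 0.63 and 1.29, and Ndn, a gene of the Prader-Willi region, by 0.81. Ndn was at 315 to 408 CPM at 2 months, 374 to 402 CPM at 6 months, 469 to 719 CPM at 12 months and 359 to 396 CPM at 18 months, so that the 12-month libraries were above those of both neighbouring ages.

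Clustered protocadherins, cell-surface proteins that give neurons individual identity, were called higher in 17 of 55 cases and lower in 0, with a median of 0.349, and in 13 with 0 lower against 5 weeks. Pcdhga6 was at 7.9, 9.94 and 8.85 CPM at 2 months, 14.9, 13.8 and 14.7 CPM at 6 months and 16.4, 15.6 and 16 CPM at 12 months. The 3 ages were apart, and the 5-week libraries were at 8.52 to 9.56 CPM (log2 fold change 0.84 against 2 months and 0.82 against 5 weeks). Pcdhga2, Pcdhga4 and Pcdhb9 rose by 0.98, 0.91 and 0.74 against 2 months. Gamma genes share exons at their 3′ end, so reads there cannot be told apart between them and single-gene values are uncertain.

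Respiratory chain genes rested on few libraries. Of 81 tested nuclear subunits, 30 were called lower and 1 higher against 2 months (median -0.279), but 0 were called lower without 2-month replicate 11 or without 12-month replicate 26, 11 without 12-month replicate 27, 55 without 2-month replicate 12, 49 without 2-month replicate 13, 10 with plain library size and 3 against 5 weeks. Cyc1, cytochrome c1, was at 252, 187 and 190 CPM at 2 months and at 150, 162 and 178 CPM at 12 months, with replicate 11 the highest. Of 13 mitochondrially encoded proteins 8 were called lower and 0 higher, with CYTB and ND4 falling by 0.48 and 0.54, and 1 was called in each direction against 5 weeks. Cytosolic ribosomal proteins were called higher in 1 and lower in 1 of 81 cases against 2 months, and higher in 21 against 5 weeks.

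Of 25 proliferation genes and 18 genes of immature neurons, edgeR called 0 against 2 months. An unadjusted p below 0.05 was reached by 4 and 3 of them, and DESeq2 called 0 and 1. Mki67, a marker of dividing cells, was at 0.710 to 0.928 CPM at 2 months and 0.426 to 0.667 CPM at 12 months (log2 fold change -0.57, adjusted p = 0.324), and Dcx, a marker of young neurons, was at 0.35 (adjusted p = 0.310). Cdkn1a, a cell cycle inhibitor, was at -0.44 (adjusted p = 0.157). Cdkn2a, a senescence marker, was too rare to be tested: 13 counts were found over the 12-month libraries and 1 over the 2-month ones, a ratio of 14 with a 95% counting interval of 2.11 to 597.

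Markers of neighbouring tissue varied between libraries of the same age. Choroid plexus markers, 16 tested, summed to 314, 2715 and 7327 CPM in the 12-month libraries and to between 603 and 1981 CPM at 2 months, and 2 were called higher, Clic6 and Prlr, the second of which is counted among the reproductive genes too. Ttr, the transthyretin of choroid plexus, was at 10.9, 1553 and 4547 CPM at 12 months (log2 fold change 2.19, adjusted p = 0.496). Pituitary markers, 8 tested, summed to 14.2 to 29.3 CPM at 12 months and 1.41 to 18.4 CPM at 2 months, and 1 was called, the gonadotropin subunit Fshb (0 to 0.0592 CPM at 2 months and 0.116 to 3.14 CPM at 12 months). Red blood cell genes, 7 tested, had 0 called by edgeR, 0 by DESeq2 and 0 at an unadjusted p below 0.05. Replicate 28, highest at 12 months for choroid plexus markers, was also highest for Avp, C3, C4b, Gfap and the MHC class I list, and the part of these markers in those results was not tested.

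**Figure D5:**
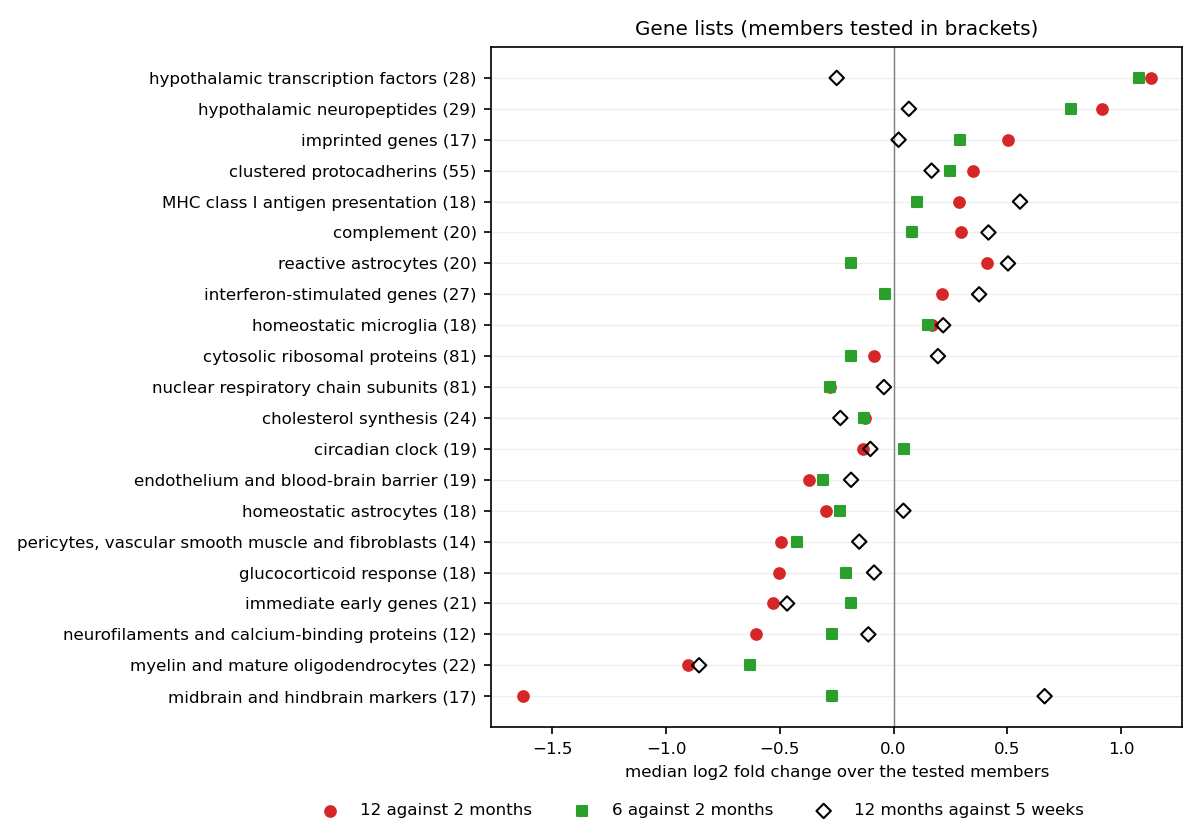
Median log2 fold change over the tested members of 21 gene lists (number tested in brackets) for 12 against 2 months, 6 against 2 months and 12 months against 5 weeks; the comparisons share libraries. Hypothalamic transcription factors, neuropeptides and imprinted genes lie well to the right against 2 months only, while myelin genes lie near -0.9 against both 2 months and 5 weeks.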

How the data were processed

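Processed read counts per gene symbol were used, as deposited by the authors for each library. Reads were aligned with HISAT2 2.1.0 to mm10 (GRCm38) and counted with HTSeq 0.9.1, per the submitters' processing notes. For the annotation, strand setting and trimming, nothing is given in the sources used here. The 5 HTSeq summary lines, 27.6 to 32.5% of reads in the libraries of 2, 6 and 12 months, were left out. Counts of 24499 symbols were fitted with edgeR 4.0.16 (R 4.3.3) as 1 mean per age over 28 libraries, with TMM scaling, filterByExpr, the robust quasi-likelihood test and Benjamini-Hochberg adjustment over all tested genes at 0.05. The 24-month library with counts for few genes was left out. CPM were computed from the counts and TMM factors. DESeq2 1.42.0, other scalings, filters and sets of libraries, and leaving out each library, were alternatives. The fits were tested on simulated counts.

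The genes and lists were chosen with earlier results of these data known. Named genes were the 10 highest and 10 lowest log2 fold changes among called genes whose 2 sets of libraries lay apart and whose higher mean reached 5 CPM, those called in both 12 against 2 and 12 against 6 months (none), up to 4 called members of each list, of which the text gives a part, and a panel given whatever its result. Some of these genes are not reported here. Genes outside these are named as such or complete a list. The pattern written for mitochondrially encoded genes matched no symbol, and the files' own symbols replaced it after the data were seen. Each library is taken as 1 animal from the number in its title, so a p-value covers the spread over these libraries, which may be technical. Total gene counts of 24661631 or more per library put 3 counts at 0.118 CPM or less in the libraries of 2, 6 and 12 months.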

Additional observations from a re-analysis of the deposited data

How the results depend on the processing

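The count of 2675 genes for 12 against 2 months was 698 in a fit to the 2-, 6- and 12-month libraries, 360 with the 2- and 12-month libraries only, 0 with all 29 libraries (303 at an unadjusted edgeR p below 0.05) and 13 with the hypothalamic transcription factor level as a term, and it ranged from 1045 to 3230 when 1 library was left out. It was 1045 without 2-month replicate 11 and 1253 without 12-month replicate 26. The genes shared with the 2675 numbered 684 of the 698, 354 of the 360 and 9 of the 13. Of the called genes 47.2% were higher, 58.9% with 2, 6 and 12 months only, 70.9% with plain library size and 15.4% with the term. The other scalings, DESeq2 (3239) and no filter (2455) stayed within 1.5 times. For 6 against 2 months the count of 608 was 9 with the 2-, 6- and 12-month libraries only and 1284 with DESeq2, and ranged from 42 (without 6-month replicate 33) to 1350 (without 2-month replicate 13). DESeq2 called 24 genes for 12 against 6 months and 18 for 18 against 6 months, where leaving out 1 library gave 1 to 6.

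With all 29 libraries, each of the 6 lists had 0 calls: neuropeptides, transcription factors, myelin, MHC class I, respiratory chain and protocadherins. With the transcription factor term each also had 0, which the term itself sets for the transcription factor list. With 5 weeks in place of 2 months, an alternative chosen after seeing the data, the counts were 0 for neuropeptides, 0 for transcription factors, 3 for the respiratory chain and 14 for MHC class I. With 2, 6 and 12 months only, they were 2 for MHC class I, 0 for the respiratory chain and 8 for protocadherins, and with 2 and 12 months only 6 for neuropeptides, 1 for MHC class I, 0 for the respiratory chain and 4 for protocadherins. Plain library size gave 10 for the respiratory chain. Leaving out 1 library gave 0 to 55 for the respiratory chain (main value 30) and 2 to 7 for MHC class I (7).

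Signs turned in 2 alternatives, for 28 named genes against 5 weeks and for 10 with the term, of which those the text describes follow. Against 5 weeks the log2 fold changes were -0.43 for Fezf1, -0.38 for Vax1, -0.72 for Otp, -0.24 for Trh, 0.84 for Ucn, 1.54 for Tfap2b, 0.35 for Rln3, 1.65 for Gata3 and 0.22 for Tal1. With the term they were 0.67 for Ucn, 0.0948 for Adra1d, 0.41 for Atp2a1, -1.62 for Fshb and -0.997 for Gnrh1. The cause was not tested in any of these. No paired analysis was possible because the 2 ages carry different animal numbers in the titles. With 3 libraries an age and 0.118 CPM for 3 counts, rare transcripts such as Cst7 and Cdkn2a have wide errors.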

Other observations

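Some genes linked to cilia and flagella were picked after their values were seen, and no count of such genes was made. Those called higher at 12 than at 2 months were Ccdc180 (log2 fold change 1.81, SE 0.37, adjusted p = 0.00287), Spag16 (1.69, adjusted p = 0.0121) and Ttc21a (1.67, adjusted p = 0.00579). Ccdc180 was at 1.05, 2.01 and 1.78 CPM at 2 months, 2.45, 3.52 and 2.19 CPM at 6 months and 7.43, 4.14 and 5.45 CPM at 12 months. Of the list of tanycyte and ependymal markers, the ciliated cells of the ventricle among them, 6 of 15 were called higher and 2 lower, with Tmem212 at 3.37 to 3.96 CPM at 2 months and 10.2 to 13.4 CPM at 12 months. Foxj1, the master regulator of motile cilia, had a log2 fold change of 0.39 (adjusted p = 0.327).

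A pair of chaperones of the endoplasmic reticulum stood higher at 12 months than at 2, 6 and 18 months. Hsp90b1, which encodes GRP94, was at 332 to 360 CPM at 2 months, 358 to 360 CPM at 6 months, 426 to 438 CPM at 12 months and 365 to 372 CPM at 18 months. Hspa5, which encodes BiP, was at 248 to 276, 250 to 269, 322 to 349 and 288 to 292 CPM at the same 4 ages. At 5 weeks Hsp90b1 and Hspa5 were at 371 to 390 and 314 to 323 CPM, so that only Hsp90b1 lay apart from that age as well. Of 24 tested genes of chaperones and the unfolded protein response, 4 were called higher and 1 lower against 2 months, with a median of -0.0246. That list summed to 7438 to 7951 CPM at 12 months and to 8012 to 8074 CPM at 24 months.

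Map4k4, a kinase named after its values were seen, shared the smallest adjusted p of the comparison (1.61e-05) with Mog. It was at 216 to 223 CPM at 2 months, 151 to 168 CPM at 6 months and 143 to 156 CPM at 12 months. It was called with the hypothalamic transcription factor level as a term (log2 fold change -0.61), as were Gamt (-1.12), the last enzyme of creatine synthesis, and the monoamine oxidase Maob (1.11). That level did not overlap between 2 and 12 months, so these calls do not separate age from regional markers.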
